A study of Mus musculus with 8 samples.

Results

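The RNA of genes that write, copy or remove DNA methylation, or that repress retroelements through histone H3K9 methylation, was followed in 4 mouse fibrosarcoma lines. The 10 genes were chosen by name: the methyltransferase genes Dnmt1, Dnmt3a, Dnmt3b and Dnmt3l, the maintenance cofactor Uhrf1, the dioxygenase genes Tet1, Tet2 and Tet3, and the repressor genes Setdb1 and Trim28. All 10 were among the 18768 genes of the deposited table, and all 10 passed the filter on low counts with 15153 genes in all. The lines were grown from tumors that methylcholanthrene, a chemical carcinogen, had induced under the skin of mice. MC654 and MC659 came from wild-type (WT) C57BL/6 mice and MC010 and MC011 from mice labelled IRF8 KO, and the age of the mice is not given in the sources used here. Each line is 1 tumor kept in culture, and 2 libraries were sequenced from each line, so that the 4 libraries of a label stand for only 2 tumors. A p-value from 2 libraries of a line measures the spread between those libraries, which may be technical.

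DNA methylation in mammals sits mainly on cytosines of CpG pairs. DNMT3A and DNMT3B place it, with DNMT3L as a catalytically inactive partner in germ cells, and after replication UHRF1 binds hemimethylated DNA and brings in DNMT1 to copy the mark. TET enzymes oxidize the methyl group, which leads to its loss. At retroelements, KRAB zinc finger proteins bind DNA and recruit TRIM28 (KAP1), which brings in the histone H3K9 methyltransferase SETDB1. In somatic cells and tumors, loss of DNA methylation or of this H3K9 arm is known to release retroelement transcripts and germline genes. Retroelement transcripts and methylation itself were not measured here, only the RNA of genes.

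The libraries held 74063616 to 116206078 counts, with a median of 85999542 over those labelled IRF8 KO and 86720186 over those labelled WT. Irf8 itself, the gene the label names, ran opposite to the labels, with 0 to 2 counts per WT library and 10 to 442 counts per library of the other label. The paper reports that PCR genotyping of genomic DNA identified MC010 and MC011 as IRF8 KO and MC654 and MC659 as WT. Every direction here follows the label and not the level of Irf8 RNA. Why Irf8 RNA ran opposite to the labels was not tested. All lines expressed Vim, the mesenchymal filament vimentin, at 4661 to 7053 counts per 1000000 (CPM) as line means. All 9 mesenchymal markers were in the table, and 4 were called between labels, Fn1 lower under IRF8 KO (log2 fold change -2.33) and Pdgfra (3.82), S100a4 (2.17) and Thy1 (1.93) higher. The summed level of the 9 markers was 9744 to 10521 CPM in the libraries labelled IRF8 KO and 14421 to 16163 CPM in those labelled WT. Most of that difference was Fn1, with a mean of 1587 CPM under IRF8 KO against 7973 CPM under WT. Vim went the other way, with 6221 against 4745 CPM, so the sum does not describe the markers as a set. Of 10 hematopoietic markers only Cd68, Csf1r, Ptprc and Cd79a were in the table, and together they reached 5.72 to 7.38 CPM in the libraries labelled IRF8 KO and 9.67 to 11.4 CPM in those labelled WT. The 4 epithelial markers summed to a line mean of 548.0 CPM in MC010, 34.0 CPM in MC011 and 118.4 to 128.3 CPM in the WT lines, nearly all of it the keratins Krt8 and Krt18. Epcam was highest in MC011 (0.995 CPM) and Cdh1 was lowest in MC010 (0.00874 CPM), so the markers did not move together. Of 4 muscle markers 3 were in the table, with a summed line mean of 3.38 CPM in MC010, 0.0386 CPM in MC011 and 1.00 to 1.12 CPM in the WT lines. Myod1 made up 2.62 CPM of the sum in MC010. The 3 endothelial markers summed to line means of 0.169 to 0.604 CPM. The part of these markers in the results was not tested. In bulk RNA, fewer cells with a transcript and less of it per cell cannot be told apart.

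The sequences at the starts of the 10 genes were taken from RefSeq on GRCm38.p6, as windows from 250 bases before to 50 bases after an annotated start. There were 17 such windows for the 10 genes. All genes but Dnmt3l had a window with at least 10 CpG. Per window, 13 of the 17 reached this density, beside 43.5% of the 32851 windows of the genome annotation. Tet2 had the most, 57 CpG in 300 bases. The windows of Dnmt3l had 3, 4 and 6, below the median of 7 over all windows. The Tet2 window on the minus strand and the most CpG-rich window of Dnmt3l, on the plus strand, are shown because these genes had the densest and the sparsest best window of the set, with each CpG in capitals.
Tet2, chr3:133544341-133544640: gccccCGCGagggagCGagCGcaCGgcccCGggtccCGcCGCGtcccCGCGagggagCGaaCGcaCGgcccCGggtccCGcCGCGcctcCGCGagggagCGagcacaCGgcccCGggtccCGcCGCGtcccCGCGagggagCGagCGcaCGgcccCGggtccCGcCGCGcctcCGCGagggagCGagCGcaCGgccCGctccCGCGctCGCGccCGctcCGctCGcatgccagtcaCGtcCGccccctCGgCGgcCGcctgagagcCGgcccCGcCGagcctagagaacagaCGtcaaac
Dnmt3l, chr10:78042037-78042336: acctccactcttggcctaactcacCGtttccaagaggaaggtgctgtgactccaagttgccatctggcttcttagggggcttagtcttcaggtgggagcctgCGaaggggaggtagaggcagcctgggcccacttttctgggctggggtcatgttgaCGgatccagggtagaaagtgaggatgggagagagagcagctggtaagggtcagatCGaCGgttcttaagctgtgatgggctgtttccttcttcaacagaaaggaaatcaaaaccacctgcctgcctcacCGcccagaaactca
The E2F motifs TTTCGCGC and TTTGGCGC, searched on both strands, were in 1 window of Dnmt1, in 1 window of Uhrf1 and in no window of the other 8 genes. The remaining windows of Dnmt1 and Uhrf1 held neither motif. Of all windows, 0.813% held either motif, a share per window, and Dnmt1 and Uhrf1 each had more than 1 window. The Dnmt1 window with motifs, on the minus strand, held 1 copy of each. The Uhrf1 window with a motif, on the plus strand, held TTTCGCGC. Both are shown because these are the genes of the replication-coupled maintenance step, with the motifs in capitals. A match is a description of letters and not a site of binding.
Dnmt1, chr9:20952574-20952873: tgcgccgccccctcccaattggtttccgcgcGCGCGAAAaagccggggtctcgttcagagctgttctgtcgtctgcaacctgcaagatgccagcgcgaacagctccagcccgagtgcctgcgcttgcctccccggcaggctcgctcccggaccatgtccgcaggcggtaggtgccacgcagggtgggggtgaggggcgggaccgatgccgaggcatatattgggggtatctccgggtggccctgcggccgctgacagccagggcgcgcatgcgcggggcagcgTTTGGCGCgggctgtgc
Uhrf1, chr17:56304063-56304362: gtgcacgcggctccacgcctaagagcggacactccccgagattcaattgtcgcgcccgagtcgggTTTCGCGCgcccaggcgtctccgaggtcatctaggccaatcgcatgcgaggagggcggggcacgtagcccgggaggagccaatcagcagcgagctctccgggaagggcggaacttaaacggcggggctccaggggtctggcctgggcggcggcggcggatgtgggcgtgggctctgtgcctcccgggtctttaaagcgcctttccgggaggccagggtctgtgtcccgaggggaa

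Per kilobase of exon, the maintenance and silencing genes were far above the de novo and TET genes in every line. Trim28 was highest, with a mean over lines of 145.0 CPM per kb, followed by Uhrf1 with 81.3 and Dnmt1 with 71.0 CPM per kb. The order of Uhrf1 and Dnmt1 differed among lines, with 116.7 against 75.1 CPM per kb in MC010 and 65.8 against 63.3 CPM per kb in MC011, but 73.1 against 74.2 CPM per kb in MC654. Setdb1 had 17.5 CPM per kb and Tet3 4.31 CPM per kb. Dnmt3a (1.37), Dnmt3l (1.24), Tet2 (0.822), Dnmt3b (0.717) and Tet1 (0.484 CPM per kb) were low. In that order the neighbours overlapped between lines, except that Tet1 was below Dnmt3b in every line. Dnmt1 made up 93.3% to 96.8% of the summed CPM per kb of the 4 Dnmt genes. Tet3 made up 75.1% to 78.9% of that of the 3 Tet genes.

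**Figure D1:**
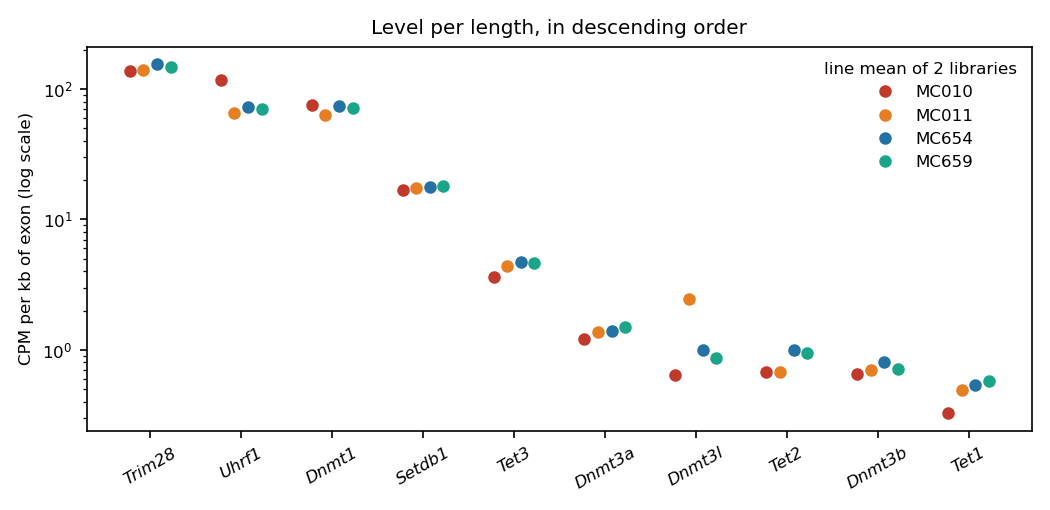
Level of the 10 genes in CPM per kb of exon on a log axis, in descending order of the mean, with a point for each line (mean of 2 libraries). Trim28, Uhrf1 and Dnmt1 lie above 60 CPM per kb in all lines, and Dnmt3l and Uhrf1 show a line apart from the other 3.

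Whether the labels differ in this machinery was asked with edgeR's quasi-likelihood test over the 4 libraries of each label, with p-values adjusted by the Benjamini-Hochberg method over all genes tested. A call needed an adjusted p under 0.05 and a fold change past 0.59 on the log2 scale, in either direction. None of the 10 genes was called (0 of 10), while 22.5% of all genes tested were. DESeq2 also called 0, beside 25.3% of all genes. An unadjusted edgeR p under 0.05 was held by 4 of the 10, and by 7109 of all 15153 genes tested. By adjusted p from edgeR alone, 1 of the 10 genes passed, Tet2 (lower), against 37.5% of all genes (20.8% higher and 16.7% lower). By adjusted p from DESeq2 alone, 4 passed, all lower, with 0.0411 for Tet1, 6.10e-13 for Tet2, 0.0376 for Tet3 and 0.0176 for Trim28. The share of all genes under that DESeq2 rule is not given here, so this count has no background to be read against. The median log2 fold change of the 10 genes was -0.14, beside 0.02 over all genes tested, and the median size was 0.20 beside 0.36. With line MC010 left out 1 of the 10 genes was called, beside 29.4% of all genes, and with line MC011 left out 2, beside 36.3%. The lines labelled IRF8 KO are therefore also described apart.

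**Figure D2:**
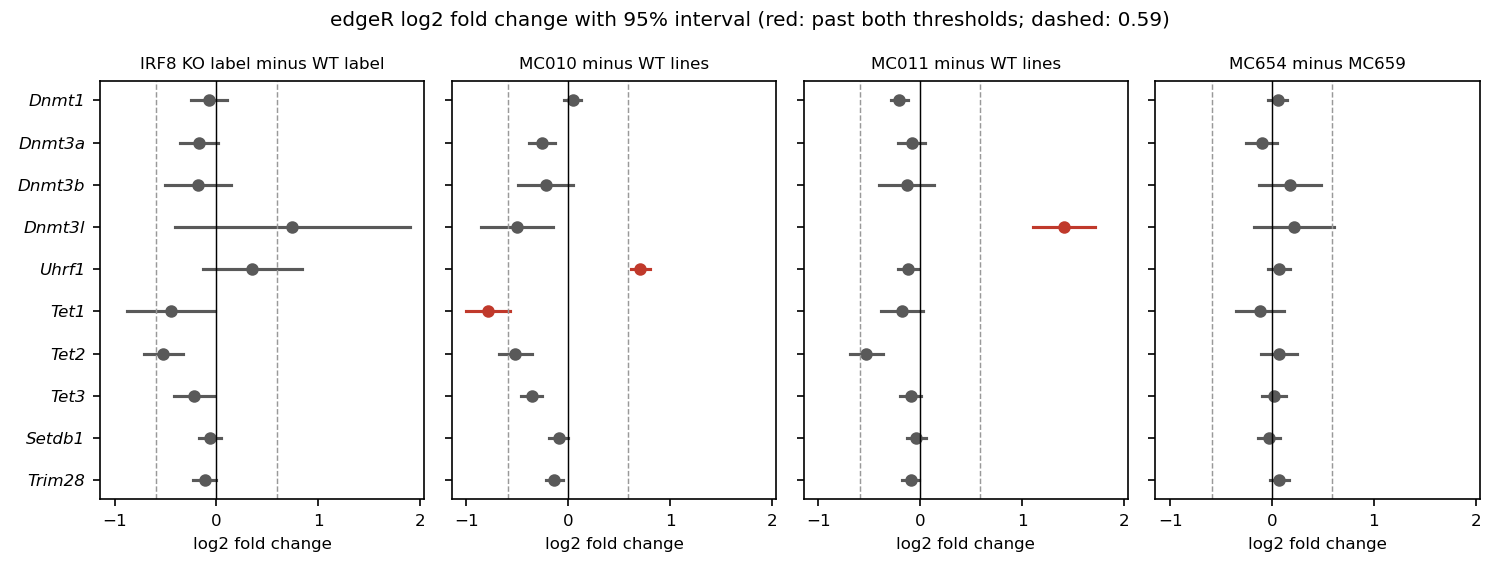
Log2 fold change from edgeR with its 95% interval for the 10 genes in 4 comparisons, red where past both thresholds and with dashed lines at 0.59. No gene is red in the comparison of labels or of the WT lines, Uhrf1 and Tet1 are red in MC010, and Dnmt3l is red in MC011.

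In the fit with a group for each line, MC010 differed from the WT lines in 2 of the 10 genes, Uhrf1 (higher) and Tet1 (lower), where 37.1% of all genes were called (19.7% higher and 17.4% lower). MC011 differed from them in 1 of the 10, Dnmt3l (higher), where 30.7% were called (17.3% higher and 13.4% lower). These comparisons share the WT libraries. MC010 and MC011 differed from each other in 3 of the 10 (31.6% of all genes). Uhrf1 was higher in MC010 (15.7% of all genes were called higher), and Tet1 and Dnmt3l were lower (16% were called lower). MC654 and MC659 differed in 0 of the 10 by edgeR and by DESeq2, where 1.24% of all genes were called higher in MC654 and 3.71% lower, 4.95% in all. None of the 10 had an unadjusted edgeR p under 0.05 there, beside 4001 of all 15153 genes.
By adjusted p alone the 10 genes leaned lower in MC010, with 1 higher and 6 lower. Of all genes, 35.9% passed as higher and 34.7% as lower, 70.6% in all. In MC011, 1 passed as higher and 4 as lower, beside 34.3% and 31% of all genes (65.3% in all). Between MC010 and MC011, 2 passed as higher in MC010 and 4 as lower, beside 31.2% and 31.8% of all genes (63% in all). Between the WT lines 0 passed, beside 5.48% and 9.02% of all genes (14.5% in all).
 The highest and lowest line means lay within 0.59 on the log2 scale for 7 of the 10 genes. The median of that range was 0.34 for the 10 genes, 0.76 over all genes tested and 0.59 over the 10993 genes with a mean log2 CPM of at least 1.

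**Figure D3:**
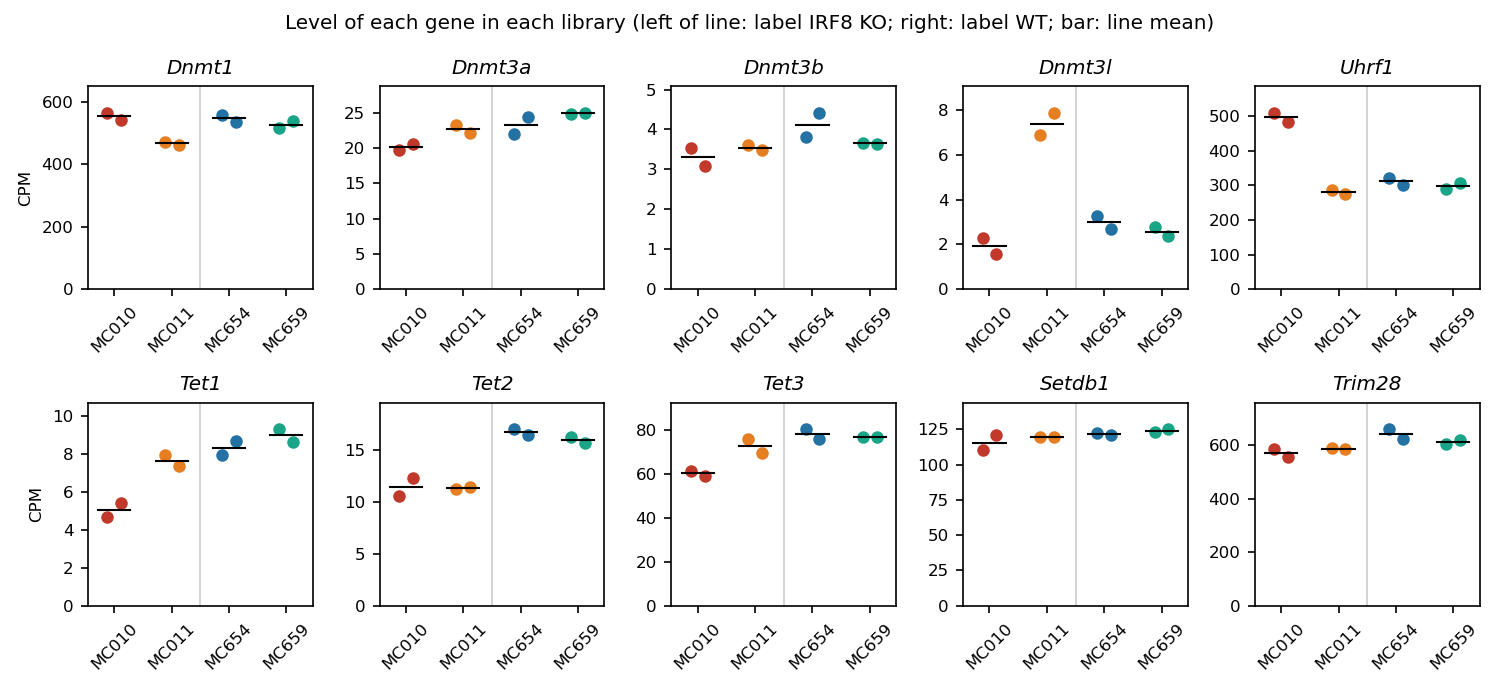
CPM of each of the 10 genes in each library on linear axes from 0, colored by line, with a bar at the mean of a line's 2 libraries. MC010 stands above the other lines in Uhrf1 and below them in Tet1, MC011 above them in Dnmt3l, and both lines labelled IRF8 KO lie below both WT lines in Tet2.

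Dnmt1, the maintenance methyltransferase (ENSMUSG00000004099, chromosome 9 of mm10, 20907209 to 20959888, minus strand), had 565.7 and 542.2 CPM in MC010, 471.9 and 461.7 CPM in MC011, 559.0 and 536.0 CPM in MC654 and, in MC659, 515.3 and 539.0 CPM. MC011 was the lowest line. MC010 lay above MC659, and MC654 overlapped both. Its log2 fold change between labels was -0.07 (95% interval -0.25 to 0.10, adjusted p = 0.490 from edgeR). MC011 fell below the WT lines by 0.20 on the log2 scale (edgeR, adjusted p = 0.000273), short of the fold threshold. MC010 stood above MC011 by 0.25 (adjusted p = 0.000166 from edgeR), also short of it.

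Uhrf1, the reader of hemimethylated CpG (ENSMUSG00000001228, chromosome 17, 56303321 to 56323486, plus strand), had 510.4 and 483.4 CPM in MC010 against 286.1 and 274.2 CPM in MC011. The WT lines had 322.6 and 299.8 CPM (MC654) and 288.5 and 306.2 CPM (MC659). Both MC010 libraries thus exceeded the other 6, and both MC011 libraries lay just below the WT range. The level in MC010 was 1.63-fold that of the WT lines (log2 fold change 0.71, standard error 0.04, adjusted p = 5.76e-10 from edgeR) and 1.77-fold that of MC011 (0.83, standard error 0.05, adjusted p = 1.23e-09). MC011 was 0.12 below the WT lines on the log2 scale (edgeR, adjusted p = 0.0269), short of the fold threshold. Pooled by label, the log2 fold change was 0.35 with an interval from -0.13 to 0.84 (adjusted p = 0.228 from edgeR), and it turned to -0.14 with MC010 left out.

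Because Uhrf1 and Dnmt1 RNA accompanies DNA replication in dividing cells, both were set beside 18 replication genes. The summed level of those genes was 4263 to 4300 CPM in MC010, 3567 to 3648 CPM in MC011 and 3734 to 3833 CPM in the WT lines, so that it was also highest in MC010. Uhrf1 had 11.9 and 11.3 CPM for every 100 CPM of replication genes in MC010. The other 6 libraries had 7.52 to 8.42. Of the 18 genes, 2 were called higher and 0 lower in MC010 against the WT lines, beside 19.7% and 17.4% of all genes. They were Pcna (log2 fold change 0.81) and Rpa2 (0.76), named after their values were seen. Uhrf1 had 0.71 in that comparison, and the median of the 18 genes was 0.23. Dnmt1 had 12.7 to 13.2 CPM on the same scale in the libraries labelled IRF8 KO and 13.8 to 14.6 in those labelled WT. The ratio of Uhrf1 to Dnmt1 CPM was 0.902 and 0.892 in MC010, 0.606 and 0.594 in MC011, and 0.559 to 0.577 in the WT lines. The part of cycling in the Uhrf1 result was not tested.

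**Figure D4:**
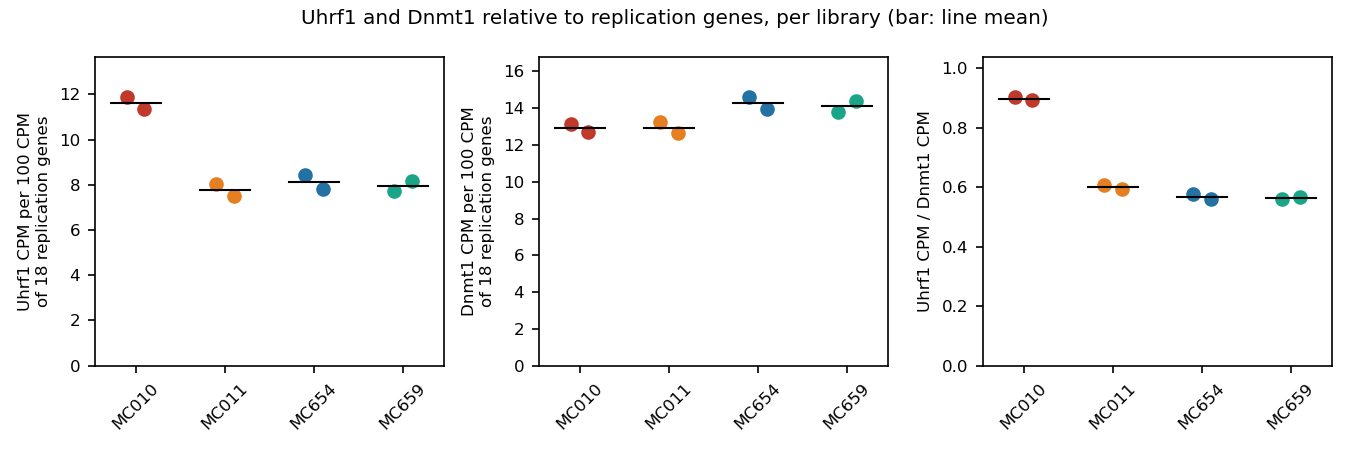
Uhrf1 and Dnmt1 CPM per 100 CPM of 18 summed replication genes, and the ratio of Uhrf1 to Dnmt1 CPM, for each library, with bars at line means. MC010 stands apart in the Uhrf1 panels (11.6 against 7.77 to 8.12 as line means) and not in the Dnmt1 panel.

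The de novo methyltransferases differed little. Dnmt3a (ENSMUSG00000020661, chromosome 12, 3806007 to 3914443, plus strand) had 19.7 and 20.5 CPM in MC010, 23.3 and 22.1 CPM in MC011, 22.0 and 24.4 CPM in MC654 and, in MC659, 24.8 and 25.0 CPM. MC010 was the lowest line, by 0.26 on the log2 scale against the WT lines (adjusted p = 0.00160 from edgeR), and the labels overlapped, with a log2 fold change of -0.17 (interval -0.35 to 0.02). Dnmt3b (ENSMUSG00000027478, chromosome 2, 153649450 to 153687730, plus strand) had 227 to 405 counts per library. Its level was 3.54 and 3.09 CPM in MC010, 3.60 and 3.48 CPM in MC011, 3.82 and 4.42 CPM in MC654 and, in MC659, 3.67 and 3.65 CPM. The labels did not overlap, but the nearest libraries were within the spread of replicates, and the log2 fold change was -0.18 (interval -0.50 to 0.14, adjusted p = 0.341 from edgeR).

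Dnmt3l, a germ cell cofactor of de novo methylation (ENSMUSG00000000730, chromosome 10, 78041947 to 78063622, plus strand), had the widest range of the 10 genes. It had 662 and 623 counts in MC011 (6.87 and 7.89 CPM) and 260 and 116 counts in MC010 (2.27 and 1.58 CPM). The WT lines lay between, with 3.27 and 2.69 CPM in MC654 and, in MC659, 2.79 and 2.36 CPM. MC011 was 2.66-fold above the WT lines (log2 fold change 1.41, standard error 0.14, adjusted p = 4.22e-07 from edgeR). MC010 fell below them by 0.50 on the log2 scale (standard error 0.16, adjusted p = 0.0131), short of the fold threshold. The difference in MC010 hung on its libraries, at -0.81 without the first (adjusted p = 0.00241 from edgeR) and -0.28 without the second (adjusted p = 0.196). Between MC010 and MC011 the log2 difference was -1.91 (standard error 0.18, adjusted p = 1.85e-07 from edgeR). The pooled log2 fold change between labels, 0.74 with an interval from -0.41 to 1.90, joins lines on opposite sides of WT, and it turned to -0.53 with MC011 left out. Exons of Dnmt3l overlap Aire on the other strand, which had 0 CPM in the libraries labelled IRF8 KO and at most 0.567 CPM in those labelled WT.

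Of the TET dioxygenases, Tet2 was lower in both lines labelled IRF8 KO, by about the same amount. Tet2 (ENSMUSG00000040943, chromosome 3, 133463679 to 133545139, minus strand) had 10.6 and 12.3 CPM in MC010 and 11.2 and 11.4 CPM in MC011, against 17.0 and 16.5 CPM in MC654 and, in MC659, 16.3 and 15.6 CPM. Every library labelled IRF8 KO was below every library labelled WT. The log2 fold change between labels was -0.52 (standard error 0.08, adjusted p = 0.00196 from edgeR), a level of 0.697 of that in WT and short of the fold threshold. Against the WT lines it was -0.52 in MC010 and -0.53 in MC011, and the lines labelled IRF8 KO differed by 0.01 (interval -0.18 to 0.19). With each tumor as 1 sample (counts added per line, 2 against 2) Tet2 was at -0.53 with an adjusted p of 0.218 from edgeR, a fit in which 0 of all 16927 genes were called. In limma-voom with a random term for the line, its adjusted p was 0.0616.

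Tet1 (ENSMUSG00000047146, chromosome 10, 62804570 to 62908996, minus strand) was low in MC010, with 4.67 and 5.39 CPM. It had 7.92 and 7.33 CPM in MC011, 7.91 and 8.65 CPM in MC654 and, in MC659, 9.30 and 8.63 CPM, so that both MC010 libraries lay below the other 6. The log2 fold change of MC010 against the WT lines was -0.78 (standard error 0.10, adjusted p = 4.40e-06 from edgeR). Against MC011 it was -0.61 (standard error 0.11, adjusted p = 0.000250), near the fold threshold and inside it, at -0.50 and -0.54, without the first library of MC010 or of MC011. MC011 differed from the WT lines by -0.17 (interval -0.38 to 0.03). Tet3 (ENSMUSG00000034832, chromosome 6, 83362373 to 83459084, minus strand) had 61.4 and 59.2 CPM in MC010, 75.9 and 69.5 CPM in MC011, 80.4 and 75.6 CPM in MC654 and, in MC659, 77.0 and 76.7 CPM. MC010 was again lowest, by 0.36 on the log2 scale against the WT lines (adjusted p = 7.93e-06 from edgeR), short of the fold threshold. All 3 Tet genes thus had an adjusted p under 0.05 toward lower levels in MC010, and Tet2 alone did in MC011, where the adjusted p was 0.126 for Tet1 and 0.114 for Tet3.

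The H3K9 arm had the narrowest range. Setdb1 (ENSMUSG00000015697, chromosome 3, 95323525 to 95357202, minus strand) had 110.0 and 120.6 CPM in MC010, 119.5 and 119.7 CPM in MC011, 122.6 and 120.6 CPM in MC654 and, in MC659, 122.7 and 125.2 CPM. Its log2 fold change between labels was -0.06 (interval -0.17 to 0.05). A change past the fold threshold lies outside this interval. The interval takes libraries of the same line as independent, so it may be too narrow for a difference between tumors. Exons of Setdb1 overlap Cers2 on the other strand, which had 204.2 to 245.4 CPM, and whether the authors counted by strand is not stated. Trim28 (ENSMUSG00000005566, chromosome 7, 12999114 to 13031035, plus strand) had 584.3 and 555.2 CPM in MC010, 589.1 and 585.4 CPM in MC011, 660.3 and 624.3 CPM in MC654 and, in MC659, 604.5 and 618.6 CPM. The highest library labelled IRF8 KO (589.1 CPM) was under the lowest WT library, and the log2 fold change was -0.12 (interval -0.23 to 0.00, adjusted p = 0.102 from edgeR). Of the 10 genes, 3 (Dnmt3b, Tet2 and Trim28) had labels that did not overlap, all lower under IRF8 KO. Over all genes tested, 42.5% had such a pattern and 20.5% had it in the lower direction.

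The partners of the 10 genes were given by lists, described by counts beside the background of 13.7% of all genes called higher and 8.72% called lower in the libraries labelled IRF8 KO. For the counts at an unadjusted edgeR p under 0.05, the background was 7109 of all 15153 genes tested. Of 8 maintenance partners (with Hells, the remodeler LSH, and Uhrf2), 7 were tested and 0 were called by edgeR or DESeq2, and 3 had an unadjusted edgeR p under 0.05. Hells had 153.7 ± 6.72 CPM (SD, n = 4 libraries of 2 lines) under IRF8 KO and 158.0 ± 8.48 CPM (SD, n = 4) under WT. Of 7 methyl-CpG readers 5 were tested and 0 were called by either tool (4 at an unadjusted edgeR p under 0.05). Of 21 genes of H3K9 methylation, HP1 and the HUSH complex, 18 were tested and 0 were called by either tool (5 at an unadjusted edgeR p under 0.05). Their median log2 fold change was 0.09.
Of 14 genes around active demethylation and base excision, 13 were tested, 3 fell and 10 did not pass. The genes that fell were Neil1 (log2 fold change -0.64, adjusted p = 0.00962 from edgeR) and Neil2 (-2.52, adjusted p = 0.0155), DNA glycosylases of base excision repair, and Gadd45b (-0.85, adjusted p = 0.00200), a stress-response gene. Neil2 was near detection in MC010, at 0.0787 and 0.0272 CPM, against 0.503 to 1.37 CPM in WT. It passed the filter on low counts only through the libraries labelled WT, where it is high. Its call and its place in the count of 3 are therefore given as a description and not as a test. The list's median was -0.32, and with MC659 left out 1 of its genes was called.
Of 6 KRAB zinc finger genes 5 were tested, and Zfp57, which protects methylation at imprinted regions, rose. It had 58.5 and 60.1 CPM in MC010 and 31.8 and 34.9 CPM in MC011, against 24.1 to 25.9 CPM in WT (log2 fold change 0.91, standard error 0.22, adjusted p = 0.0123 from edgeR). It was not called with line MC010, MC654 or MC659 left out. The other 4 tested genes of the list were not called. Of 7 genes that restrict retroelements after transcription 6 were tested, and Mov10, an RNA helicase, and Adar, an RNA editing enzyme, fell. Mov10 had 48.3 ± 11.7 CPM (SD, n = 4) under IRF8 KO and 86.9 ± 9.33 CPM (SD, n = 4) under WT (log2 fold change -0.85, adjusted p = 0.00612 from edgeR). Adar had 63.3 ± 16.4 CPM against 98.3 ± 10.3 CPM (SD, n = 4 each, log2 fold change -0.64, adjusted p = 0.0260 from edgeR). Both are also interferon-induced genes. Against the WT lines, Mov10 had a log2 fold change of -0.57 in MC010 and -1.18 in MC011. Adar had -0.34 in MC010 and -0.998 in MC011. In the edgeR fit with a group per line, both genes were called in MC011 and not in MC010. Both were also called higher in MC010 than in MC011, by 0.61 for Mov10 and 0.66 for Adar on the log2 scale. With MC659 left out, 0 genes of that list were called, and with MC654 left out 1.
Of the 18 replication genes, all tested, only Rrm2, a subunit of ribonucleotide reductase, was called between labels. It had 267.9 ± 47.6 CPM (SD, n = 4) under IRF8 KO and 159.9 ± 9.40 CPM (SD, n = 4) under WT, a log2 fold change of 0.75 (adjusted p = 0.00242 from edgeR), and it was lost with MC659 left out. The median of the list was 0.07.

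**Figure D5:**
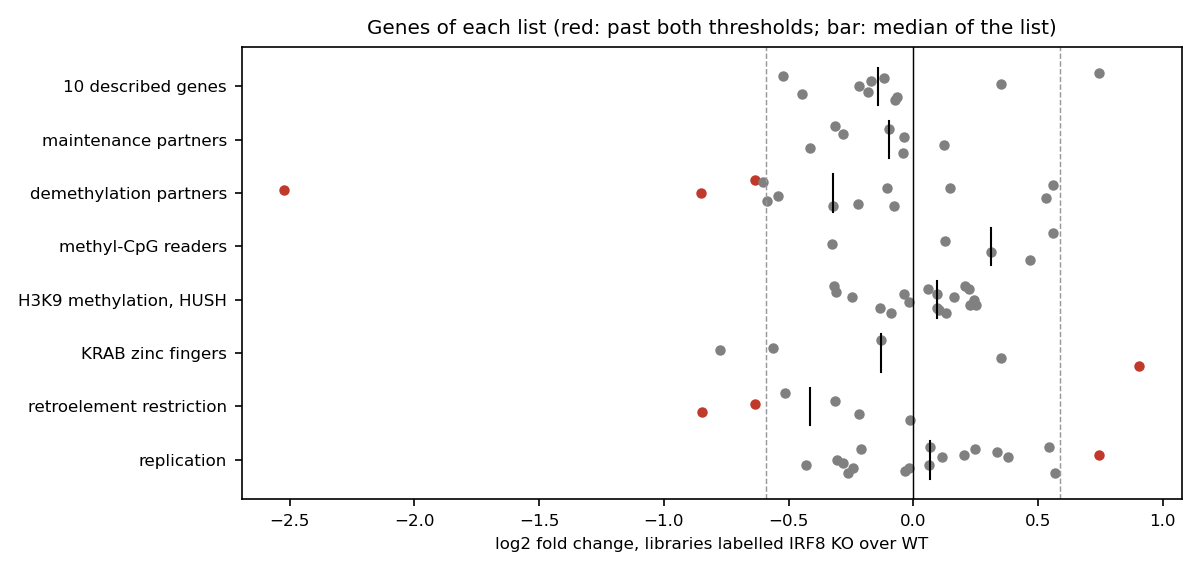
Log2 fold change between labels for each tested gene of the 10 described genes and 7 lists, with a bar at the median of each list, dashed lines at 0.59 and called genes in red. The 10 genes, the maintenance partners, the methyl-CpG readers and the H3K9 and HUSH genes hold no red point, and the demethylation list holds 3, all lower. The call of Neil2 among these 3 is a description and not a test.

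Germline genes that promoter methylation keeps silent in somatic cells were also listed, and the methylation of their promoters was not measured. Of 22 such genes 6 were in the table, and 3 had enough counts to be tested. Of these 1 was called between labels, Tdrd1. It passed the filter on low counts only through the libraries labelled IRF8 KO, where it is high. Its call and the count of 1 are therefore given as a description and not as a test. Piwil2 had a log2 fold change of 0.49 (adjusted p = 0.522 from edgeR) and Brdt one of -0.60 (adjusted p = 0.146), and both are named after their values were seen. Tdrd1, a piRNA pathway gene, had 2086 and 1386 counts in MC010, 25 and 13 in MC011 and 0 in all 4 libraries labelled WT. The highest floor of a WT library, the CPM of 3 counts, was exceeded at least 516-fold by the mean of MC010 and at least 5.89-fold by that of MC011. It was called over the labels (adjusted p = 0.0328 from edgeR), but not under a block on the library number, in limma-voom with a random term for the line, with either WT line left out, with counts added per line, or without any 1 of the 6 libraries of MC010, MC654 and MC659. Sycp3, a protein of the meiotic chromosome axis, had at most 15 counts in a library labelled IRF8 KO and at most 2 in WT.

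The genes with the most similar pattern were found by the root mean square distance between log2 CPM values centred on the mean of the 8 libraries, over 10992 candidate genes. The 8 libraries are 4 lines, so many genes lie close. Nearest to Uhrf1 were Bace1 (a distance of 0.0327 on the log2 scale), Oaf (0.0397) and Icmt (0.0425). Nearest to Dnmt1 were Ybx1 (0.0244), Rpl7a (0.0257) and Rrp1 (0.0271). Nearest to Dnmt3a were Rabgef1 (0.0416), Tspan31 (0.0463) and Copa (0.0466), and nearest to Dnmt3b were Pcmt1 (0.0625), Abhd17c (0.0633) and Nxf1 (0.0666). Tet1 was closest to Zfp382 (0.0439), Ate1 (0.0498) and Ikbip (0.0613).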

How the data were processed

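RNA was sequenced from 4 mouse fibrosarcoma lines, 2 libraries per line, from a stranded mRNA kit. The authors aligned reads to mm10 with STAR and counted them per gene with HTSeq (STAR 2.7.3a and HTSeq 0.11.2 per the submitters' processing notes). Whether HTSeq counted by strand is not given in the sources used here. The deposited table holds raw counts per gene and library and a signal (counts divided by a DESeq2 size factor). It also holds the authors' own comparison, a mean signal, log2 fold changes with errors, a score (Wald statistic) and p-values, which were deposited and not used. Its genes had at least 20 counts summed over libraries. No gene of the sex chromosomes was analysed here.

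Tests on the raw counts used edgeR 4.0.16 under R 4.3.3 (TMM scaling, filterByExpr by label, robust quasi-likelihood test, Benjamini-Hochberg adjustment). The fits were by label and with a group per line. Standard errors and 95% intervals were derived from the F statistic. Both thresholds (0.05 on the adjusted p, 0.59 on the log2 fold change) had to be passed for a call. CPM are counts per 1000000 of TMM-scaled library size. Exon lengths came from GENCODE M21 on GRCm38, whose coordinates equal those of the table for all 10 genes. With these depths, 3 counts correspond to 0.0262 to 0.0408 CPM, which covers counting error only.

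The 10 genes, the lists and the tests were chosen with earlier results of these data known. Genes named from lists are those past both thresholds, at most 4 per direction, or at or under 3 counts in all libraries of a label. Hells, Pcna, Rpa2 and the markers were named after their values were seen. For 5 of the genes the 3 nearest patterns were named. Alternatives were DESeq2 1.42.0, no low-count filter, upper-quartile scaling, the library number as a block, counts added per line, limma 3.58.1 voom with a random term for the line, each library and each line left out, and no fold threshold. The scripts were tested on simulated data. Libraries of a line differed by more than sampling noise (chi-square per degree of freedom from 7.60 to 13.1), so none was a duplicate.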

Additional observations from a re-analysis of the deposited data

Results flagged for a closer look

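In 3 of the 10 genes, the lines labelled IRF8 KO differed in their change from the WT lines, by the edgeR test of MC010 against MC011. The log2 difference was -1.91 for Dnmt3l, 0.83 for Uhrf1 and -0.61 for Tet1. Dnmt3l was above WT in MC011 and below it in MC010, and for Tet1 both MC010 libraries lay below both MC011 libraries. Of the MC011 libraries, 1 (7.33 CPM) was itself below every WT library. In groups of 4 libraries of a label, a library stood far from the other 3 in 3 of 37 groups examined, where chance gives about 1 in 20 for independent samples. The 4 libraries of a label are 2 lines and not 4 independent samples. Setdb1 had 110.0 CPM in the first library of MC010 against 119.5 to 120.6 CPM in the others labelled IRF8 KO. Trim28 had 555.2 CPM in the second library of MC010 against 584.3 to 589.1 CPM. Sycp3 had 0.131 CPM in the first library of MC010 against at most 0.0136 CPM, values near or under the floor.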

How the results depend on the processing

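With DESeq2, no filter, upper-quartile scaling, limma-voom or each library left out, 0 of the 10 genes were called between labels. The number was 1 with MC010 left out (29.4% of all genes called), 2 with MC011 left out (36.3%) and 1 with no threshold on the fold change (37.5%). With no fold threshold, 3 maintenance, 6 demethylation, 2 reader, 5 H3K9 and HUSH, 3 KRAB, 4 restriction and 8 replication genes were called, as were 7, 5 and 6 of the 10 genes in MC010 against WT, MC011 against WT and MC010 against MC011. DESeq2 called 5 demethylation genes, and without the low-count filter 1 H3K9 and HUSH gene was called.

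Same-numbered deviations from line means correlated between -0.03 and 0.06, so no batch that follows the library number was seen. A batch shared by the libraries of a line or of a label cancels in this check. Such a batch cannot be told apart from the line or the label. Under a replicate block on the library number, 0 of the 10 genes and 0 germline genes were called between labels, and no other count of the lists or of the 10 genes changed. Tet2 had a log2 fold change of -0.52 (adjusted p = 0.00582 from edgeR) under the block.

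With MC010 left out, 5 demethylation, 0 KRAB, 2 replication and 2 germline genes were called, and Uhrf1 reversed to -0.14. With MC011 left out, 1 H3K9 and HUSH, 2 KRAB and 2 replication genes were called, and Dnmt1 reversed to 0.036 and Dnmt3l to -0.53. With MC654 left out (12.7% of all genes), 0 KRAB, 1 restriction and 0 germline genes were called. With MC659 left out (11.6% of all genes), 1 demethylation, 1 reader, 0 KRAB, 0 restriction, 0 replication and 0 germline genes were called. With counts added per line, 0 of all 16927 genes tested were called (3658 at an unadjusted edgeR p under 0.05), so the 0 genes called of the 10 and of the demethylation, KRAB, restriction, replication and germline lists say nothing particular to them. With limma-voom and a random term for the line, 0 germline genes were called. With each library left out, the counts ranged from 0 to 1 for readers, 1 to 2 for KRAB genes, 1 to 2 for restriction genes, 1 to 3 for replication genes and 0 to 1 for germline genes. The cause of these moves was not tested. Dnmt3b, Dnmt3l and Tet1, with the lowest counts of the 10 genes, had the widest intervals between lines.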

Other observations

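Between MC010 and MC011, 1 of 7 tested maintenance partners and 1 of 5 KRAB genes were called higher in MC010. Of 13 demethylation genes 3 were lower, and of 18 replication genes 2 were higher. Of 6 restriction genes 3 were higher and 1 lower, and of 3 germline genes 1 and 1. No reader or H3K9 and HUSH gene was called. Of all genes, 15.7% were called higher and 16% lower. The 4 genes described here were not called between the labels, and neither were Cxxc4, Cdc6, Mcm5 and Piwil2. All were named after their values were seen. Cxxc5, a CXXC zinc finger gene of the family that includes a Tet2 regulator, had 7.49 CPM in MC010 against 34.9 CPM in MC011, 32.7 CPM in MC654 and 28.9 CPM in MC659, a log2 difference between the lines labelled IRF8 KO of -2.21. The chromatin remodeler Smarcad1, which acts at replicated heterochromatin, had 74.4 CPM in MC010 but 42.0 CPM in MC011, with a log2 difference of 0.82. It had 62.3 CPM in MC654 and 62.1 CPM in MC659. Samhd1, a dNTP hydrolase, had 83.0 CPM in MC010 and 156.3 CPM in MC011 (-0.91), and Apobec3, a cytidine deaminase, had 60.9 CPM and 26.5 CPM (1.20). The WT lines also differed in both genes, short of the fold threshold. Samhd1 had 133.5 CPM in MC654 and 164.4 CPM in MC659 (-0.30, adjusted p = 0.000230 from edgeR). Apobec3 had 36.3 CPM and 51.8 CPM (-0.51, adjusted p = 2.95e-05 from edgeR). All 4 genes passed both thresholds between MC010 and MC011 in the edgeR fit with a group per line.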
